A study of Mus musculus with 8 samples.

Results

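Interferon-stimulated neutrophils were examined among the CD45+ cells of mouse skin wounds. They were chosen by their own counts. A neutrophil was a barcode with a summed S100a8 and S100a9 rate of at least 40 per 10000 UMIs, at least 1 UMI of Csf3r (the receptor for the granulocyte growth factor G-CSF) and at most 2 UMIs of the mononuclear phagocyte genes Csf1r, Ms4a7, C1qa and Fn1. It was called interferon-stimulated when the summed rate of Ifit1, Ifit3 and Rsad2 reached 10 per 10000 UMIs and that of the granule genes Ngp, Lcn2 and Mmp8 stayed below 10. This gave 467 cells out of 35158 cells kept (1.33%), out of 7670 neutrophils (6.09%) and out of 3387 neutrophils with the low granule rate (13.8%), which are called low-granule neutrophils here. The 2920 low-granule neutrophils below the interferon rate served as the comparison and are called the other low-granule neutrophils.

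The diabetic group held C57BL/6J mice given streptozotocin (STZ) at 120 mg/kg at 4 weeks of age, after a fast of 12 h, and taken as diabetic from a blood glucose of 16.5 mmol/L. STZ destroys the insulin-producing beta cells, so the model is one of insulin deficiency. The control group held mice of the same strain, and the labels name no agent for them. Wounds were taken on days 1, 3, 5 and 7. Each of the 8 libraries was made from a pool of 5 mice, so a group on a day is 1 library without a replicate. Cells carrying CD45, the surface protein of blood-derived cells, were sorted before sequencing.

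Type I interferons bind the receptor IFNAR1/IFNAR2 and act through receptor-bound kinases on transcription factors, which bind the interferon-stimulated response element in the promoters of interferon-stimulated genes (ISGs). The products of these genes bind or degrade foreign RNA, modify proteins with ISG15, present peptides and feed back on the pathway. Neutrophils carry the receptor, and a subset rich in ISGs is known from blood and inflamed tissue of mice and people.

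The promoters of the genes the results turn on are shown because the response element stands in several of them. The sequences are from RefSeq on GRCm38.p6, run from 250 bases before to 50 bases after the start of a RefSeq transcript, which for Ifit3, Slfn4 and Ddx60 lies within the annotated gene, and read 5′ to 3′ on the strand of the gene. Capitals mark matches to the core of the element, which is GAAA, any 2 bases and GAAA again, read on either strand, and the 3 matches of Isg15 overlap one another. Ifit3 and Rsad2 (viperin, an antiviral enzyme) were used to choose the cells, Isg15 (a ubiquitin-like protein), Cxcl10 (a T cell chemokine), Slfn4 (a Schlafen protein of myeloid cells) and Ddx60 (a helicase of RNA sensing) were not.
Ifit3, chr19:34583279-34583578, plus strand: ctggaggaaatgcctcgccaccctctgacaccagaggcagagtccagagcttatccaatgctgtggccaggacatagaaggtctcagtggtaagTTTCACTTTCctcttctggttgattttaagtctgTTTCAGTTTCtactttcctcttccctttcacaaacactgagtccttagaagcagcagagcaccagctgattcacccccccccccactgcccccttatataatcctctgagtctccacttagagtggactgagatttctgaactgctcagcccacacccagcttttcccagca
Rsad2, chr12:26456403-26456702, minus strand: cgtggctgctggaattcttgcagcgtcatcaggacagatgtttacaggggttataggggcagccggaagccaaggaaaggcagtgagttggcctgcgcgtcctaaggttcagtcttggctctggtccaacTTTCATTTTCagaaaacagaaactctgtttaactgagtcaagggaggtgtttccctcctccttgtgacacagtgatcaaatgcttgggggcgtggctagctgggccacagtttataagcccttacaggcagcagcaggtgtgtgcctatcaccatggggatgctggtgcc
Isg15, chr4:156200769-156201068, minus strand: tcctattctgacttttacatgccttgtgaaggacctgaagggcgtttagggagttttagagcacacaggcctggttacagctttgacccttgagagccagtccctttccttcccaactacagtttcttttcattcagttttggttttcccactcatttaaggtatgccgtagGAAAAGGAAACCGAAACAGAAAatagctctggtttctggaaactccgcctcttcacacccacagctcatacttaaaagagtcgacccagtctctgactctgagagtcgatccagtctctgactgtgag
Cxcl10, chr5:92348840-92349139, minus strand: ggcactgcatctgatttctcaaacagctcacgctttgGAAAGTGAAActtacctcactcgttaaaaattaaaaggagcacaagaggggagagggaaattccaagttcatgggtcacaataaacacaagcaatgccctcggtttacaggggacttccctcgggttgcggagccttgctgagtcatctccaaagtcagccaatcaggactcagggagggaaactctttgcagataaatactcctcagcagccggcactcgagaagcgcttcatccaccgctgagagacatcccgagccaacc
Ddx60, chr8:61927837-61928136, plus strand: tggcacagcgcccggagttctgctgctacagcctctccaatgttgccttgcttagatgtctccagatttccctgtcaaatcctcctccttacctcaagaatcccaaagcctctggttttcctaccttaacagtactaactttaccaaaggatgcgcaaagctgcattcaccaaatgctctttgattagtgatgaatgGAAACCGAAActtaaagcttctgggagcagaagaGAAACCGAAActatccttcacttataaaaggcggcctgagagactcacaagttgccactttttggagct
Slfn4, chr11:83174936-83175235, plus strand: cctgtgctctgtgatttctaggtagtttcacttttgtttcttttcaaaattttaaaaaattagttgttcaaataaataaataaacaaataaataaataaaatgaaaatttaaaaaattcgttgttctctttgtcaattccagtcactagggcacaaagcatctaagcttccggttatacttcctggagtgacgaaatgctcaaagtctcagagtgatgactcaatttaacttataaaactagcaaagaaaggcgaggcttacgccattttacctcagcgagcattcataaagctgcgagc

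The first match began 156 bases before the transcript start used for Ifit3, 120 before that of Rsad2, 78 before that of Isg15, 213 before that of Cxcl10 and 53 before that of Ddx60. No match was found in the window of Slfn4. Of the 99 ISG-list genes in the files, 79 had a RefSeq promoter, and 36 of these (45.6%) held a match in at least 1 promoter. The share was 3.99% of all 27025 genes with a promoter, or 3.44% of 32851 promoters. By list, a match stood in 5 of 6 IFIT genes, 9 of 10 genes of Mx, guanylate-binding and immunity-related GTPases, 3 of 7 Schlafen genes and 2 of 9 genes of MHC class I and the immunoproteasome. A match is a match of letters and not a measured site.

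The libraries held 19236522 to 33842509 UMIs over 4059 to 5836 barcodes, and 3266 to 5436 cells were kept in each. Neutrophils were 3.95% of the cells of control day 5 and 8.39% to 35.5% of those of the other libraries. Barcodes are serial numbers in the deposited tables, so barcodes shared between libraries could not be counted, and no 2 cells (0 cells) had the same counts. Only 68 cells (0.193%) were called doublets by Scrublet. These few calls were not relied on, and only the ranking of the scores was used. How well the calls or the scores find doublets was not tested. Interferon-stimulated cells made up 10 of the cells within the highest 5% of doublet scores, or 2.14% of the 467, against 3.66% of the other low-granule neutrophils. On diabetic day 1 the order was the reverse, at 3.09% against 1.29%.

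The cells carried the neutrophil markers at the level of the other low-granule neutrophils. The summed level of 8 neutrophil marker genes was 17525 to 23381 CPM (UMIs per 1000000 UMIs of the summed cells) in the interferon-stimulated cells of a library and 15682 to 23990 CPM in the other low-granule neutrophils. The median depth was 2363 UMIs per cell in the former and 2251.5 in the latter. Markers of plasmacytoid dendritic cells, which are known as strong interferon producers, gave 1 UMI in all 467 cells. Macrophage markers summed to 284 to 5234 CPM over the libraries, against 256 to 4430 CPM in the other low-granule neutrophils, and dendritic cell markers to 1319 to 8323 CPM against 986 to 7704 CPM. Both were thus present at similar levels in both kinds of neutrophil of a library, and their part in the results was not tested.

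The rate that chose the cells was spread widely and without a gap at the threshold. Its median was 24.1 per 10000 UMIs, with quartiles at 15.1 and 50.1 and a highest value of 466. There were 51 cells just inside the threshold, at rates of 10 to 12, and 80 low-granule neutrophils just outside it, at rates of 8 to 10. UMIs of 1 of the 3 interferon genes were found in 213 cells, of 2 genes in 145 cells and of all 3 in 109 cells. Rsad2 had a UMI in 90.1% of the cells, Ifit1 in 50.1% and Ifit3 in 37.5%. The cells were thus cut from a range of a score. These values describe the choice and do not tell whether the cells are a separate type.

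Several genes that were not used in the choice were at higher levels in cells with more UMIs of the 3 chosen genes. Isg15 was at 162 CPM in the 2409 low-granule neutrophils without such a UMI and at 302 CPM in the 511 that had at least 1 and stayed below the rate. In the interferon-stimulated cells it was at 438 CPM with 1 or 2 UMIs (56 cells), 497 CPM with 3 (81 cells), 628 CPM with 4 or 5 (95 cells) and 1246 CPM with 6 or more (235 cells). Slfn4 went from 2660 CPM without a UMI over 5066 CPM with 1 or 2 UMIs to 13124 CPM with 6 or more, and Irf7, the transcription factor that amplifies the interferon response, from 60.7 CPM over 207, 199 and 224 to 374 CPM. Usp18 had no such order over the 4 steps of the interferon-stimulated cells, at 85.3, 11.7, 53.8 and 158 CPM. Nor had Cmpk2, at 36.5, 0, 67.3 and 242 CPM. The step with 3 UMIs rested on 2 UMIs of Usp18 and 0 of Cmpk2. With the cells grouped by rate instead (10 to under 20, 20 to under 40, 40 or more), both rose in order. Usp18 was then at 50.5, 70.5 and 217 CPM and Cmpk2 at 14.7, 101 and 380 CPM. Il1b, the inflammatory cytokine, moved between 10596 and 12335 CPM over the steps by UMIs without an order. Cells are summed over libraries here, so these steps carry no test. The cells of day 1 had both a higher rate of the chosen genes and a higher level of Slfn4 than those of the later libraries of at least 20 cells, and the part of the day in these steps was not tested.

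**Figure D1:**
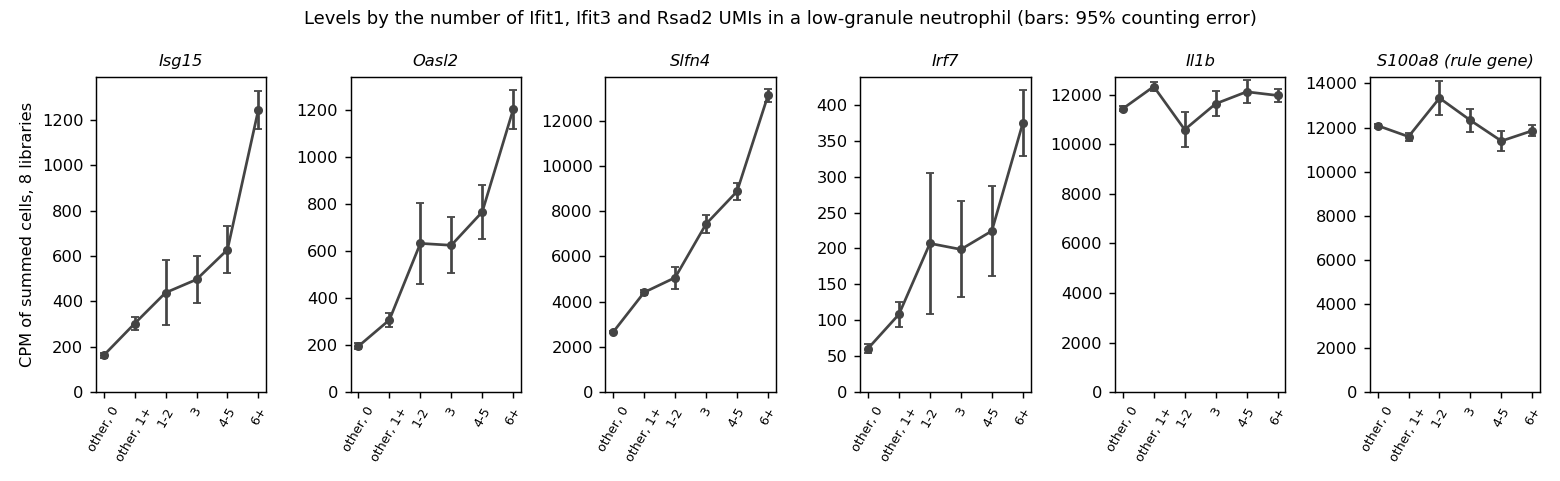
Level in CPM of 6 genes (vertical axes, from 0) in low-granule neutrophils grouped by their UMIs of Ifit1, Ifit3 and Rsad2 (horizontal axes: other low-granule neutrophils with 0 and with 1 or more UMIs, then interferon-stimulated cells with 1 or 2, 3, 4 or 5 and 6 or more), with 95% counting error as bars. Isg15 goes from 162 to 1246 CPM and Slfn4 from 2660 to 13124 CPM, while Il1b stays between 10596 and 12335 CPM.

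How common these cells were on each day was asked first. On day 1, 23.9% of the low-granule neutrophils of the diabetic wound were interferon-stimulated (97 of 406 cells, 95% exact binomial interval 19.8% to 28.3%) and 20.9% of those of the control wound (101 of 483 cells, 17.4% to 24.8%). On day 3 the shares were 10.8% (74 of 684 cells, 8.59% to 13.4%) and 10.6% (98 of 924 cells, 8.69% to 12.8%). On day 5 they were 11.1% (55 of 494 cells, 8.50% to 14.2%) and 8.33% (6 of 72 cells, 3.12% to 17.3%). On day 7 they were 12.3% (13 of 106 cells, 6.69% to 20.1%) and 10.6% (23 of 218 cells, 6.81% to 15.4%). Day 1 was the highest day in both groups, and its interval lay above those of all later days except that of diabetic day 7. These intervals reflect counting error alone and leave out differences between mice.

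Out of all neutrophils the day 1 shares were 6.61% and 6.45%, against 5.04%, 5.77% and 4.25% on diabetic days 3, 5 and 7 and 7.40%, 4.65% and 5.01% on the same days of the control wounds. On this count control day 3 was above control day 1, since low-granule cells were 924 of the 1324 neutrophils of control day 3 and 483 of the 1565 of control day 1. The same interferon rate was reached by 16.4% and 13.7% of the granule-rich neutrophils on day 1 and by 5.26% to 10.2% on later days. Among cells with at least 3 UMIs of the 4 mononuclear phagocyte genes and none of Csf3r, called mononuclear phagocytes here by that gate, it was reached by 24.3% and 16.3% on day 1 and by 3.93% to 8.59% later. In a gate for T cells it was reached by 10.7% and 2.70% on day 1 and by 1.02% to 2.70% later, at a median depth of 3738 UMIs. T cells respond to interferon as well, so this gate is no measure of free RNA alone.

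**Figure D2:**
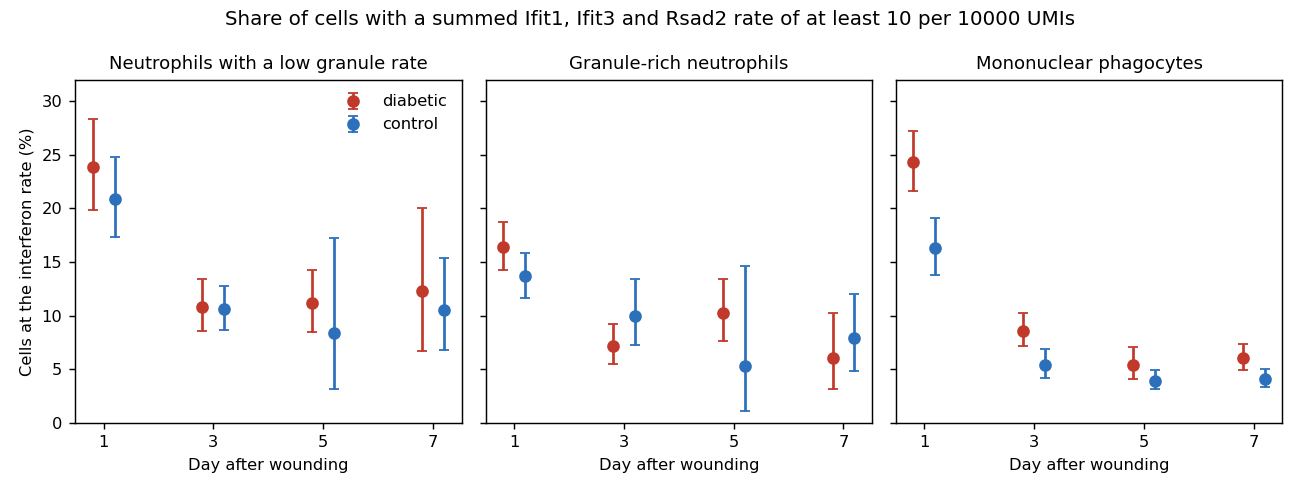
Share of cells (vertical axis, %) at a summed Ifit1, Ifit3 and Rsad2 rate of at least 10 per 10000 UMIs by day after wounding (horizontal axis), in low-granule neutrophils, granule-rich neutrophils and mononuclear phagocytes, with 95% exact binomial intervals as bars. Day 1 is the highest day of each panel and group, at 23.9% and 20.9% in the low-granule neutrophils.

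Whether diabetic wounds held more of these cells was tested over the 4 days. The share of low-granule neutrophils was higher in the diabetic library on 4 of 4 days, by 2.98 percentage points on day 1 (95% interval -2.49 to 8.52), 0.213 on day 3 (-2.80 to 3.35), 2.80 on day 5 (-6.23 to 8.22) and 1.71 on day 7 (-5.17 to 10.0). The mean difference was 1.93 points, and the exact two-sided permutation of the signs over 4 days gave p = 0.13, the smallest p this design allows. The difference did not pass the threshold, and each day's interval held 0. The count of 4 of 4 days was lost under other settings: the difference was -0.88 points on day 7 at a rate of at least 5, -0.48 and -0.29 points on days 3 and 5 at a rate of at least 20, -0.29 points on day 3 with at least 3 UMIs of the chosen genes and -0.033 points on day 3 with at least 500 genes per cell (exact permutation p = 0.25, 0.5, 0.25 and 0.25). With Isg15 and Oasl2 as the chosen genes the diabetic library was lower on days 1, 3 and 5 (-0.79, -0.31 and -1.08 points), and with Isg15, Slfn4 and Oasl2 it was lower on day 7 (-6.70 points). Out of all neutrophils the mean difference was -0.46 points (exact permutation p = 0.75), with the diabetic library higher on days 1 and 5 and lower on days 3 and 7. Out of all cells it was 0.016 points (exact permutation p = 1.0), with the diabetic library lower on days 1, 3 and 7 and higher on day 5.

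After each cell was thinned to 1000 UMIs, 34.1%, 20%, 19.4% and 19.4% of the low-granule neutrophils of diabetic days 1, 3, 5 and 7 were at the rate, and 26.1%, 15.5%, 11.7% and 17.4% of those of the control days. At this depth 1 UMI reaches the rate, and 8.51%, 8.62%, 8.37% and 8.15% of the thinned T cells did so on the diabetic days and 17.8%, 7.86%, 9.21% and 7.85% on the control days. The 11.7% of control day 5 was thus close to the 9.21% of its own T cells. The thinned mean difference was 5.56 points, again with the diabetic library higher on 4 of 4 days (exact permutation p = 0.13).

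Genes of these cells were then compared with those of the other low-granule neutrophils of the same library, in the 6 libraries with at least 20 cells of both (diabetic days 1, 3 and 5 and control days 1, 3 and 7). The edgeR quasi-likelihood test called 101 genes higher (3.3% of 3062 tested) and 4 lower (0.131%) at a Benjamini-Hochberg adjusted p under 0.05. Of the 101 genes, 51 were on ISG lists and 50 were not. The lists are incomplete, and known interferon-induced genes such as Ddx60, Gbp9 and Ifi35 are among the 50. The 50 are thus no count of genes outside the interferon response. Which of them travel with the genes that chose the cells was not tested, and their p-values are to be read with this limit. ISG-list genes travel with the genes that chose the cells, so their values are given as a description and without a p. Of 60 ISG-list genes tested, 51 were past the threshold, all upward, and the median log2 ratio was 1.55, against -0.03 for all genes tested.

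Isg15 stood at 1031, 754, 964 and 744 CPM in the interferon-stimulated cells of diabetic days 1, 3, 5 and 7 and at 1309, 780, 888 and 319 CPM in those of the control days. In the other low-granule neutrophils it was at 59.6 to 238 CPM, so the summed levels of the libraries did not overlap. An Isg15 UMI was found in 62.1% of the interferon-stimulated cells, in 23.6% of the others and in 17.8% of the T cells, and after thinning in 45.0% and 13.2% of the 2 kinds of neutrophil. Its log2 ratio over the 6 libraries was 2.25 ± 0.13 (SE). Slfn4 stood at 14206, 8624, 10061 and 8458 CPM over the diabetic days and at 14663, 6325, 9989 and 6171 CPM over the control days, against 1605 to 4238 CPM, with a log2 ratio of 1.67 ± 0.07. Slfn4 is thus an abundant transcript of wound neutrophils at large and was further raised in these cells. Oasl2, an oligoadenylate synthetase-like protein, stood at 1121, 754, 1067 and 372 CPM and at 994, 1148, 1110 and 489 CPM, against 109 to 302 CPM, with a log2 ratio of 2.26 ± 0.14. Diabetic day 7 (13 cells) and control day 5 (6 cells) are in none of the ratios.

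**Figure D3:**
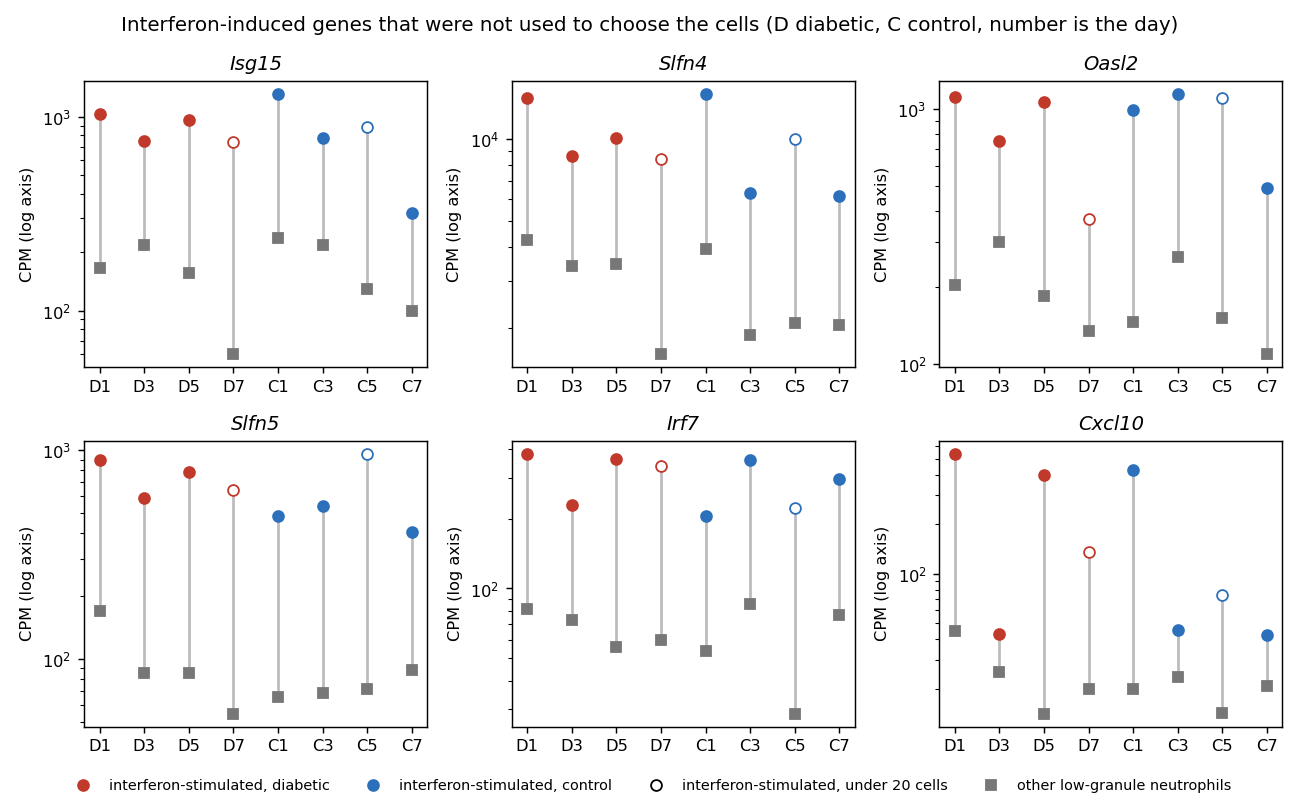
CPM (log axes) of 6 interferon-induced genes outside the choice in the interferon-stimulated cells (circles, open under 20 cells) and in the other low-granule neutrophils (squares) of each library, labelled D for diabetic and C for control with the day. The circle lies above the square in every library for each of the 6 genes, and Cxcl10 varies most between libraries, from 42.6 to 537 CPM.

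The lists differed in how many of their tested genes passed the threshold. Genes below the count filter were not tested: of 13 Mx, guanylate-binding and immunity-related GTPase genes in the files, 4 were. A gene can pass this filter through its counts in the interferon-stimulated cells alone. Ifi47, for example, averaged 14.6 CPM on day 1 and 10.2 CPM later in the other low-granule neutrophils. The counts out of tested ISG-list genes are thus partly set by the filter. Among RNA-binding IFIT genes, 2 of 2 outside the choice were higher, among them Ifit3b with a log2 ratio of 5.10 ± 0.27, a near-identical copy of the chosen gene Ifit3 whose reads may be shared with it. Of the oligoadenylate synthetases and RNase L, which degrade RNA, 5 of 6 were higher, such as Oasl1 (log2 ratio 2.43 ± 0.22). The ISG15 conjugation genes were higher in 3 of 3, including Usp18, which removes ISG15 and dampens the receptor (3.56 ± 0.37), and Herc6, the mouse ISG15 ligase (3.52 ± 0.36). Of the Schlafen genes 4 of 5 were higher, and of the GTPases that attack pathogen vacuoles 4 of 4, such as Ifi47 (3.91 ± 0.30), Irgm1 (2.79 ± 0.27) and Gbp2 (2.48 ± 0.18).

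RNA and DNA sensors were higher in 5 of 6, among them Ifih1 (MDA5, log2 ratio 2.35 ± 0.26) and Ddx58 (RIG-I, 2.12 ± 0.22). The transcription factors Irf1 and Irf7 were higher, at log2 ratios of 0.75 and 2.13. MHC class I and immunoproteasome genes were higher in 8 of 9 at smaller ratios, such as B2m, the light chain of MHC class I, at 0.69 ± 0.08. In the IFITM family of membrane proteins 2 of 4 were higher, with Ifitm3 at 1.31 ± 0.11 and Ifitm1 at -0.11 ± 0.08. Ifitm1 was at 1319 to 3888 CPM in the interferon-stimulated cells and at 1776 to 4140 CPM in the others, and these ranges overlap.

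The 10 genes outside the ISG lists with the largest rise, among those past the threshold and higher in 6 of 6 libraries, were Ddx60, Gm13822, Ly6i, Mnda, Trafd1, Gbp9, Ifi35, 9930111J21Rik2, Helz2 and Smchd1, at log2 ratios from 3.03 down to 1.53. Several are known interferon-induced genes that the lists had left out, such as Ddx60, the guanylate-binding protein Gbp9 and Ifi35, and the values of these are likewise a description. Ddx60 was at 213, 37.1, 97.5 and 0 CPM in diabetic days 1, 3, 5 and 7 and at 144, 230, 74.0 and 128 CPM in the control days, against 0 to 21.6 CPM in the others (log2 ratio 3.03 ± 0.31). Smchd1, a chromatin protein known for silencing the inactive X chromosome, was at 135 to 666 CPM against 93.4 to 187 CPM (1.53 ± 0.14, adjusted p = 1.9e-11 in edgeR). Of the 42 genes called higher outside the lists that had a RefSeq promoter, 13 (31.0%) held the response element match, beside 52.5% of the 40 called ISG-list genes with a promoter.

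The monocyte markers Plac8 and Ly6c2 were higher too. Plac8 was at 351, 241, 367 and 67.7 CPM in the diabetic days and at 357, 271, 1480 and 617 CPM in the control days, against 59.6 to 150 CPM (log2 ratio 1.44 ± 0.16, adjusted p = 4.22e-09 in edgeR). Ly6c2 had a log2 ratio of 0.91 ± 0.17 (adjusted p = 0.000127). Both calls were lost in edgeR when each cell was thinned to 1000 UMIs (Plac8 0.53, adjusted p = 0.514; Ly6c2 0.69, adjusted p = 0.126). Ly6c2 also lost its call without the library block (adjusted p = 0.258) and fell to 0.59 (adjusted p = 0.0452) without the highest 5% of doublet scores. These were named after their values had been seen. The 4 monocyte markers summed to 371 to 1628 CPM against 151 to 422 CPM, and the sum was higher in the interferon-stimulated cells in each of the 8 libraries. The other 2 monocyte markers did not reach the count needed for the test: Vcan was at 0 to 74.0 CPM against 0 to 86.1 CPM, and Ccr2 at 0 to 67.7 CPM against 0 to 44.1 CPM. The part of monocytes in these 2 calls was not tested.

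Of 15 inflammatory cytokines and chemokines tested, Csf1, the macrophage growth factor, was higher (log2 ratio 0.41 ± 0.10, adjusted p = 0.00585 in edgeR, higher in 6 of 6 libraries). The monocyte-attracting chemokine Ccl2, which was on no list and is named after its values had been seen, was higher as well (0.83 ± 0.18, adjusted p = 0.00226 in edgeR, 6 of 6 libraries), but its call was lost without the highest 5% of doublet scores (0.36, adjusted p = 0.631), without diabetic day 1 (0.62, adjusted p = 0.173), without the library block (adjusted p = 0.894) and without a filter on low counts (adjusted p = 0.0619). Cxcl3, a neutrophil-attracting chemokine, was lower (-0.49 ± 0.12, adjusted p = 0.00479), but on diabetic day 1 it stood at 3573 CPM against 3142 CPM in the others. Il1b had a log2 ratio of -0.01 ± 0.06 and Cxcl2 of -0.13 ± 0.05, and neither passed the threshold. Cxcl10 was at 537, 43.2, 396 and 135 CPM in the diabetic days and at 427, 45.9, 74.0 and 42.6 CPM in the control days, against 14.2 to 45.3 CPM. It came from few cells: a UMI of Cxcl10 was found in 52 of the 467 cells (11.1%), in 3.25% of the other low-granule neutrophils and in 10.8% of the T cells, which are deeper and respond to interferon themselves. After thinning to 1000 UMIs the share was 8.95% of the interferon-stimulated cells and 1.59% of the other low-granule neutrophils. The other genes called lower were Neat1, a nuclear long RNA (-0.47 ± 0.12, adjusted p = 0.0173), Clec4e, the pattern receptor Mincle (-0.23 ± 0.07, adjusted p = 0.0462), and Fam160b2 (-1.12 ± 0.33, adjusted p = 0.0489), each lower in 6 of 6 libraries. These calls were weak. DESeq2 called 0 genes lower, and the 4 lower calls and that of Csf1 were lost in edgeR without the library block (adjusted p = 0.0892 to 0.998). Without a filter on low counts Csf1 had a log2 ratio of 0.22 and lost its call as well (adjusted p = 0.533 in edgeR). Csf1 lost its call without control day 3 (adjusted p = 0.0991), Cxcl3 without control day 1 (0.0503) or control day 3 (0.0669), Neat1 without diabetic day 1, diabetic day 5 or control day 1, Clec4e without any library but diabetic day 1, and Fam160b2 without any of the 6 (adjusted p = 0.051 to 0.302 for the latter 3 genes in edgeR).

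Beside 3.3% of all tested genes called higher and 0.131% lower, lists of this size would hold few calls in any case. Genes called were 0 of 7 interferon receptors and kinases, 0 of 11 receptors of mature neutrophils, 0 of 6 granule genes, 0 of 6 genes of the NADPH oxidase, 0 of 13 NF-kB feedback genes and 0 of 10 glycolysis and hypoxia genes. Of 8 Fc and pattern receptors, Fcgr4, a receptor for immunoglobulin G, was higher (0.73 ± 0.19, adjusted p = 0.018 in edgeR) and Clec4e lower, and of 8 survival and death genes Casp4, an inflammatory caspase, was higher (0.49 ± 0.13, adjusted p = 0.0149). Both higher calls were lost in edgeR after thinning (adjusted p = 0.926 and 0.784). They were also lost without the library block (0.0894 and 0.745) and without a filter on low counts (0.183 and 0.563). That of Fcgr4 was lost too without diabetic day 1 (0.0605), diabetic day 5 (0.137) or control day 7 (0.0926). That of Casp4 was lost without diabetic day 1 (0.152), diabetic day 3 (0.0572) or control day 1 (0.0878). The receptor chains were read at low levels in both kinds of cell, Ifnar1 at 0 to 444 CPM and Ifnar2 at 42.6 to 296 CPM in the interferon-stimulated cells, with log2 ratios of -0.12 ± 0.18 and -0.22 ± 0.23. Of 13 immediate early genes 0 were called, although all 13 log2 ratios were above 0, from 0.01 to 0.29. Of the 237 tested genes that were listed or called, 2 moved one way in all 3 diabetic libraries and the other way in all 3 control libraries. Among all 3062 genes the share was 2.68%. Genes called over the 6 libraries mostly move alike in them, so these 237 were partly chosen against that pattern.

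**Figure D4:**
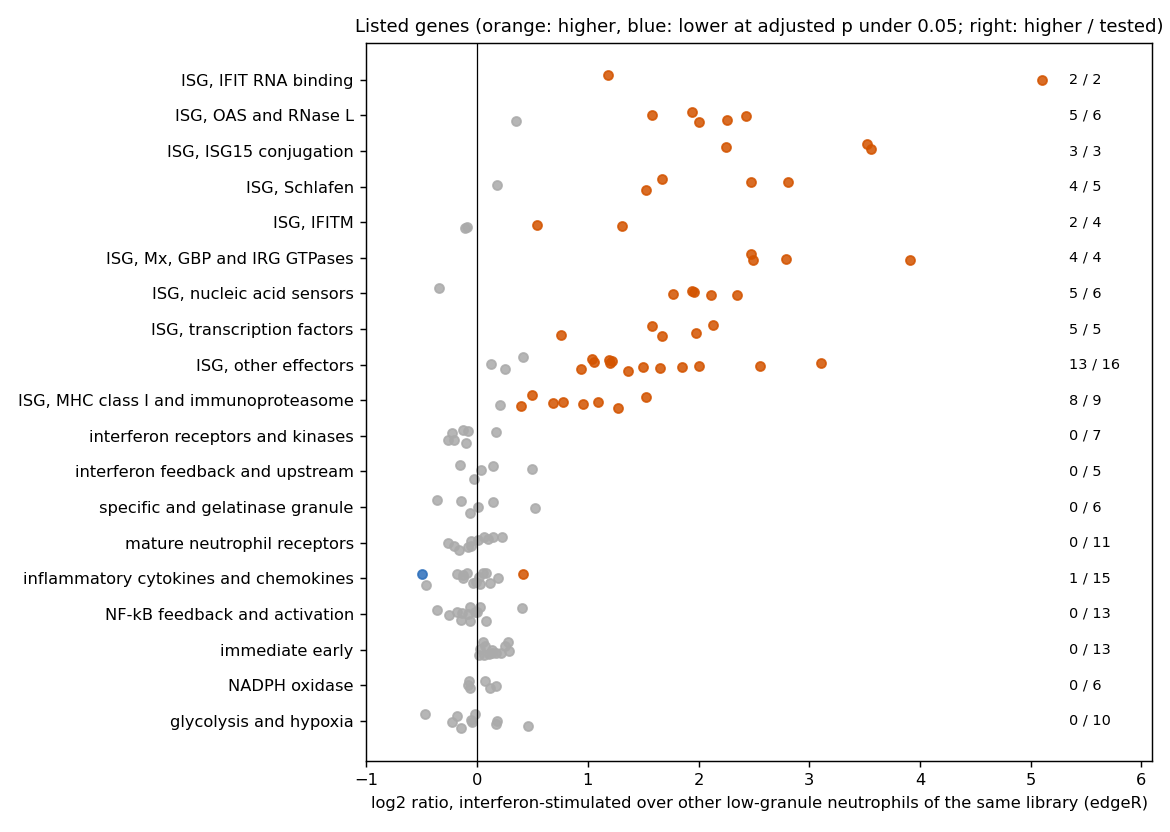
Log2 ratio of interferon-stimulated over other low-granule neutrophils of the same library (horizontal axis, edgeR over 6 libraries), 1 point per tested gene, by gene list (rows), with genes past the threshold in orange (higher) or blue (lower) and the number higher and tested at the right. The medians of the 10 ISG lists run from 0.22 to 3.52, and those of the 9 other lists from -0.12 to 0.13.

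Within the interferon-stimulated cells, many ISGs were at their highest on day 1. Genes were used when they had at least 100 UMIs in the interferon-stimulated cells of the 6 libraries. Among 1432 such genes, 155 (10.8%) were above all 4 later libraries of at least 20 cells (diabetic days 3 and 5, control days 3 and 7) in both day 1 libraries, and 341 (23.8%) were below. Of 54 ISG-list genes, 23 were above and 5 below, while in the other low-granule neutrophils 7 of the 54 were above and 5 below, beside 8.59% and 29.7% of the 1432 genes. A gene can pass this filter through the interferon-stimulated cells alone. Cmpk2, for example, averaged 7.22 CPM on day 1 and 4.26 CPM later in the others. The counts of the 54 genes in the 2 kinds of neutrophil are thus partly set by the filter. Cxcl10 was 482 CPM on average on day 1 and 132 CPM later, Ifih1 343 and 129 CPM and Isg15 1170 and 704 CPM. For Irgm1 the day 1 level rested mainly on the diabetic library, at 367 CPM, with 124 CPM on control day 1 and 42.6 to 111 CPM later. Ly6e went the other way, at 790 CPM on day 1 and 1293 CPM later, as did Ifi27l2a, at 466 and 773 CPM. No test of day 1 against the later libraries was made, and each day and group is 1 library.

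The cells of day 1 were also further above the threshold: the median rate of the 3 chosen genes was 40.2 on diabetic day 1 and 25.5 on control day 1, and 16.3 to 19.96 in the 4 later libraries of at least 20 cells. Since other ISGs rise with this rate, its part in the day pattern was not tested. Inflammatory cytokines and chemokines were above the later libraries on day 1 in 9 of 15 genes in the interferon-stimulated cells and in 8 of 15 in the others. Tnf, for example, was at 4424 CPM on day 1 and 1770 CPM later in the former and at 4157 and 2117 CPM in the latter. Cd274, which encodes the checkpoint ligand PD-L1, was at 1810 CPM on day 1 and 605 CPM later, and at 1191 and 626 CPM in the others.

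Transcripts of the interferons themselves were sought in all cells. Ifnb1, encoding interferon beta, gave 1298 UMIs in 519 cells (1.48%). Its level over all cells of a library was 24.2, 4.18, 0.839 and 7.86 CPM on diabetic days 1, 3, 5 and 7 and 20.1, 0.838, 1.60 and 3.25 CPM on the control days. It was thus highest on day 1 in both groups, as the interferon-stimulated share of the low-granule neutrophils was. Out of all neutrophils that share was highest on day 1 in the diabetic group (6.61%), while control day 3 (7.40%) was above control day 1 (6.45%). This count leaves out granule-rich neutrophils at the interferon rate, whose own share was highest on day 1 in both groups (16.4% and 13.7%). Mononuclear phagocytes, 10980 of the 35158 cells and among the deeper ones, held 735 of these UMIs, in 273 cells. Their level was 36.0 and 35.8 CPM on day 1 and 1.23 to 8.94 CPM later, close to that of all cells in several later libraries. The interferon-stimulated neutrophils held 26, in 5 cells, of which 20 came from 1 cell of control day 1. Ifna genes gave at most 10 UMIs each, and genes that are not in the tables were not analysed here. Ifng, encoding interferon gamma, had another course: 2.15, 3.56, 14.4 and 21.6 CPM over the diabetic days and 3.24, 14.6, 3.60 and 10.0 CPM over the control days, with 1 UMI in the interferon-stimulated neutrophils. All these values of a day rest on 1 library each.

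Diabetic and control wounds were compared within the interferon-stimulated cells on days 1 and 3, the days on which both libraries held at least 20 of them. With 2 libraries a group, a block for the day and 1 residual degree of freedom, edgeR called 0 of 2609 genes (0%), and the smallest adjusted p was 0.812. At an unadjusted p under 0.05 there were 141 genes (5.4%), and DESeq2 called 1 gene. Of 73 ISG-list genes, 0 were called and 5 had an unadjusted p under 0.05, and their median log2 ratio of diabetic over control was 0.13, against 0.01 for all genes. The log2 ratio was -0.21 ± 0.20 (SE) for Isg15, 0.19 ± 0.18 for Slfn4, -0.21 ± 0.27 for Oasl2 and 1.01 ± 0.44 for Irgm1. A count of 0 does not show that the cells were alike.

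The gene that DESeq2 called was Saa3, an acute phase protein of inflamed tissue, named here after its values had been seen. It was at 770 and 470 CPM in the interferon-stimulated cells of diabetic days 1 and 3 and at 132 and 124 CPM in those of the control days, from 195, 76, 34 and 27 UMIs (edgeR log2 ratio 2.25 ± 0.29, adjusted p = 0.812; DESeq2 adjusted p = 0.00526). In the other low-granule neutrophils it was at 204 and 359 CPM against 235 and 36.3 CPM, and in mononuclear phagocytes at 648 and 513 CPM against 447 and 34.7 CPM. The part of free RNA or of the other cell types in this difference was not tested.

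The ISG levels of these neutrophils were last set beside those of 686 mononuclear phagocytes past the same interferon threshold, in the 6 libraries with at least 20 cells of both (448 neutrophils). The threshold was shared but the level was not: the mean CPM of Ifit1, Ifit3 and Rsad2 summed to 4329 in the neutrophils and to 3025 in the mononuclear phagocytes. Of 89 ISG-list genes outside the choice, 15 (16.9%) were higher in the neutrophils in all 6 libraries and 34 (38.2%) lower, beside 11% and 43.3% of 5418 genes with at least 100 UMIs. The list as a whole was thus near the background of 2 different cell types. Higher in the neutrophils were Slfn4 (mean 10008 against 1518 CPM), Slfn1 (833 against 173 CPM), Ifitm1 (2512 against 483 CPM), Isg20, an exonuclease that degrades RNA (712 against 189 CPM), and Cd274 (1007 against 380 CPM). Lower were Ms4a4c (34.4 against 921 CPM), Phf11b (6.66 against 284 CPM), Fcgr1, the high-affinity receptor for immunoglobulin G (38.9 against 475 CPM), Ifit2 (76.4 against 307 CPM), Mx1 (10.9 against 118 CPM) and Cxcl10 (249 against 669 CPM). Isg15 was in neither class, at 859 and 623 CPM. Ifitm1 and Cd274 were not called by edgeR in the interferon-stimulated cells against the other low-granule neutrophils. In the latter Ifitm1 averaged 2667 CPM on day 1 and 2752 CPM later, and Cd274 1191 and 626 CPM. Slfn4 averaged 4079 and 2703 CPM there, Slfn1 269 and 326 CPM and Isg20 206 and 166 CPM. All but the later level of Isg20 were above the means in the mononuclear phagocytes past the threshold. The part of the usual level of each cell type in these differences was not tested. The mononuclear phagocytes were deeper, with a median of 6624 UMIs against 2373.5, and no test was made.

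**Figure D5:**
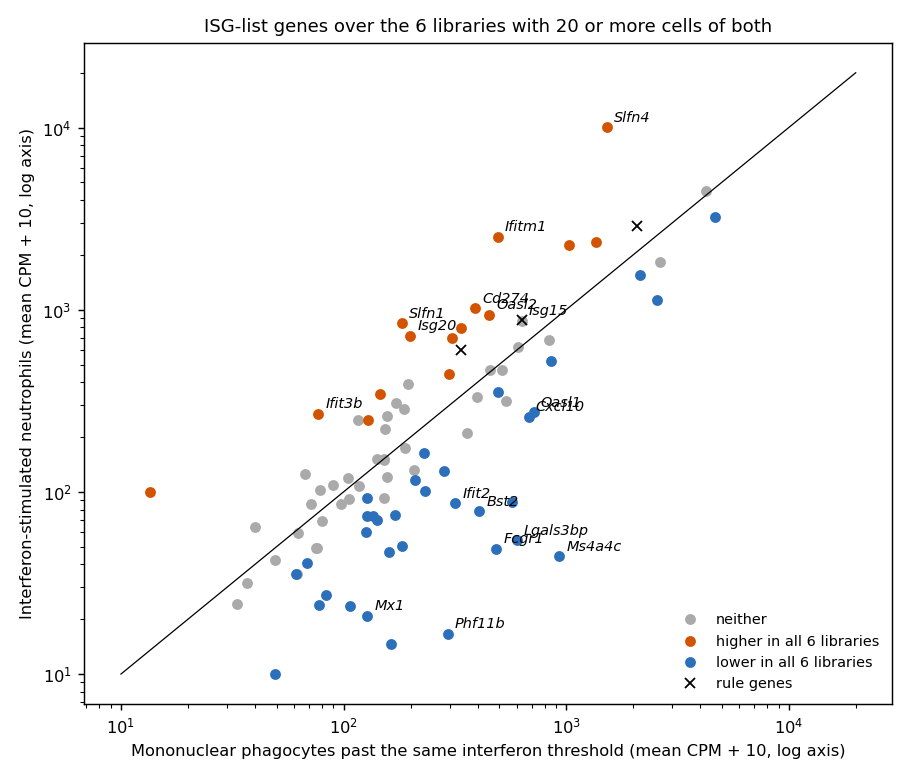
Mean CPM plus 10 of ISG-list genes over 6 libraries in interferon-stimulated neutrophils (vertical, log axis) against mononuclear phagocytes past the same interferon threshold (horizontal, log axis), with the line of equality, genes higher or lower in all 6 libraries in orange or blue and the chosen genes as crosses. Slfn4 lies furthest above the line among abundant genes, and Ms4a4c and Phf11b lie furthest below it.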

How the data were processed

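The deposited tables hold raw UMI counts per gene and barcode, which the authors made with fastp, UMI-tools and STAR. The submitters' processing notes name fastp 0.20.1 and the build mm9, while the methods of the study name Ensembl version 92. The notes of the series name 10X Genomics and the methods BD Rhapsody. Only gene symbols were taken from the tables, and promoter coordinates are those of RefSeq on GRCm38.p6.

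A barcode was kept as a cell when it had more than 200 genes and less than 20% of its UMIs from mitochondrial genes, and the 13 mitochondrial genes were then left out of all rates and levels. The members and the gene lists were chosen with earlier results of these data known. Named genes are the markers of the cells, examples of each list and, for each edgeR fit, the 10 genes of largest change in each direction among those past the threshold, changed alike in every library and on no ISG list.

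UMI counts were summed per library and kind of cell and tested with the quasi-likelihood test of edgeR 4.0.16 in R 4.3.3, with TMM, filterByExpr, and the library or the day as a block. The 13 genes of the rule were left out of the tests. Libraries needed 20 cells of each kind. P-values are Benjamini-Hochberg adjusted over all genes tested, with a threshold of 0.05. DESeq2 1.42.0 was an alternative. Each fit was tested on simulated data with known changes. Libraries of 1 group and day have no replicate, so p-values measure the spread between days or libraries.

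Intervals are 95% exact binomial for shares and Newcombe's for their differences. Means over days carry 10 CPM added where ratios were formed. Cells were thinned to 1000 UMIs once, with seed 1. Python 3.11.15, scanpy 1.11.5 (Scrublet), numpy 2.4.6, scipy 1.17.1, pandas 2.3.3 and matplotlib 3.10.9 were used. The alternatives were other interferon rates or genes, other filters on cells, thinning, doublet scores, other denominators, DESeq2, no filter on low counts, no block and leaving out a library or a day.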

Additional observations from a re-analysis of the deposited data

Results flagged for a closer look

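Diabetic and control libraries moved in opposite directions for 2 of the 237 genes that were listed or called and tested within libraries. Among all 3062 genes tested the share was 2.68%. The 237 include genes taken in because they were called over the 6 libraries, and such genes mostly move alike, so the 2 shares cannot be compared. Fos, an immediate early transcription factor, was lower in the interferon-stimulated cells than in the other low-granule neutrophils in 3 of 3 diabetic libraries (233 against 346, 309 against 354 and 419 against 431 CPM on days 1, 3 and 5). It was higher in 3 of 3 control libraries (489 against 363, 1092 against 856 and 745 against 713 CPM on days 1, 3 and 7), and its log2 ratio over all 6 was 0.063. On control day 5, with 6 interferon-stimulated cells and outside the fit, it was lower (666 against 978 CPM). H2-Eb1, an MHC class II gene of antigen-presenting cells, was lower in the 3 diabetic libraries (336 against 390, 544 against 870 and 855 against 993 CPM) and higher in the 3 control libraries (303 against 221, 647 against 624 and 1085 against 1003 CPM), with a log2 ratio of -0.078. On diabetic day 7, with 13 such cells and outside the fit, it was higher (1319 against 1263 CPM). Whether these within-library ratios differ between diabetic and control libraries was not tested for either gene. The level of Fos itself, compared between diabetic and control interferon-stimulated cells of days 1 and 3, had a log2 ratio of -1.46 ± 0.28 (edgeR, unadjusted p = 0.00299, adjusted p = 0.812), and it was called lower without a filter on low counts (adjusted p = 0.00211) and with UMIs of at least 2 of the 3 chosen genes (adjusted p = 0.000802).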

How the results depend on the processing

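The mean difference of the share, diabetic minus control, ran from 1.58 to 2.50 points when a day was left out and stayed above 0 under the other alternatives except out of all neutrophils (-0.46 points) and with Isg15 and Oasl2 in place of the 3 chosen genes (-0.0125 points), the latter chosen after seeing the data. Out of all cells it was 0.016 points, with the diabetic library lower on 3 of 4 days. Thinning gave a difference of 4.51 points on day 3. With Isg15, Slfn4 and Oasl2 as the chosen genes, the differences were 10.9, 19.7 and -6.70 points on days 3, 5 and 7, and day 1 exceeded the mean of the later days by 17.5 points in the diabetic and 23.9 points in the control group. That excess was 8.02 points in the diabetic group with Isg15 and Oasl2, 1.59 and 0.77 points out of all neutrophils and 1.03 and 1.38 points out of all cells.

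Within libraries, 101 genes were higher and 4 lower. Without the library block there were 67 and 1, after thinning 43 and 2 (of 1635 tested), with DESeq2 98 and 0, and without a filter on low counts 97 and 85. With UMIs of at least 2 of the 3 genes, also chosen after seeing the data, 2 were lower. Leaving out a library gave 80 to 116 genes higher and 1 to 9 lower: 9 lower without diabetic day 1 and 1 lower without control day 1 or control day 3. The cause of these shifts was not tested. Between diabetic and control cells, 0 genes were called at first, and DESeq2 or at least 10 members (3 days) gave 1 higher gene, no filter gave 2 higher and 1 lower, and at least 2 of the 3 genes gave 1 higher and 1 lower. Saa3 was called in each of these, Fos was lower without a filter and with at least 2 of the 3 genes, and Gm5483 was higher without a filter. Leaving out a day left 1 library a group and no test. Single cells rest on few UMIs: 213 of 467 cells had UMIs of 1 chosen gene.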
